A study of Mus musculus with 2 samples.

Results

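The integrins, laminins and nidogens are the cell-surface receptors and the matrix proteins through which many cells hold on to a basement membrane or a pericellular matrix. They were chosen by gene symbol: integrin α and β subunits with the integrin-like gene Itgbl1, laminin α, β and γ chains, and both nidogens. The choice gave 78 of the 45101 probe sets on the array, which read 37 of 18193 named genes (25 integrin genes, 10 laminin genes and 2 nidogen genes). Superficial zone cells, the flattened chondrocytes of the cartilage surface, were prepared from the joints of femur and tibia of ICR mice on postnatal day 4. One culture (n = 1) had no retinoic acid, and the other (n = 1) had 10 μM retinoic acid, the active form of vitamin A, for 24 h; both were in DMEM with 10% FBS. RNA from each was hybridised to 1 Affymetrix Mouse Genome 430 2.0 array. With 1 array per group no difference has a replicate check, no test was run, and a fold holds for these 2 arrays alone. Whether 1 preparation gave both cultures, and the number of mice behind each, is not in the labels.

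An integrin is a pair of 1 α and 1 β subunit that spans the plasma membrane, binds matrix outside the cell and, through talin and kindlin, the actin cytoskeleton inside it. The α subunit largely sets the ligand: collagens, laminins, proteins with an Arg-Gly-Asp (RGD) motif, or the surface proteins of other cells. Laminins are trimers of an α, a β and a γ chain, and nidogens bind the laminin γ1 chain and link the laminin network to type IV collagen and perlecan. Articular chondrocytes have no basement membrane, but their pericellular matrix holds several of these proteins.

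The treatment label was checked on the retinoic acid targets Cyp26b1, 115-fold higher with retinoic acid, and Rarb, at least 72.8-fold higher. All 14 markers of superficial zone cells and chondrocytes had a control signal above that array's median; with retinoic acid 13 did, the exception being Chad. Their summed signal was 52028 in control and 26453 with retinoic acid, and 6 of the 14 were at least 2-fold lower. Markers of other cells went both ways. Of 8 measured for smooth muscle and pericytes 1 was higher past 2-fold (Rgs5, 2.93-fold) and 2 lower (Cspg4, 9.29-fold, and Des, 2.27-fold). The summed signals of all 9 on the array were 6996 in control and 9562 with retinoic acid. Among 5 measured for Schwann and neural cells Ncam1 was 5.22-fold higher. S100b, also made by chondrocytes, was 11.3-fold and Pmp22 2.49-fold lower (sums over all 7 on the array 6334 and 3656). For tendon, ligament and synovial fibroblasts 6 of 11 (54.5%) were lower past 2-fold (sums 20628 and 14536). Of these, Cd55 and Kera were above the median in control only. The count ran from 2 to 6 under the alternatives. The 5 measured for skeletal muscle were all within 2-fold (sums over all 9 on the array 414 and 474). The part of these cells in the results was not tested. In RNA of a whole culture, fewer cells of a type and less RNA per cell cannot be told apart. Low signals of the MAS5 algorithm carry little information, so a signal at or below its array's median (26.5 in control, 29.7 with retinoic acid) was raised to that median. A gene was read by its brightest probe set. It counted as measured when above the median on at least 1 array, and its fold is a bound, written "at least", when it was above on 1 array only.

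Nid1, which encodes nidogen 1, stood 6.76-fold higher with retinoic acid, and its paralog Nid2 differed by 1.11-fold. Among the receptors, the integrin subunit genes Itga8, Itga9 and Itga3 and the leukocyte subunit gene Itgb2 were at least 2-fold higher, and Itga6 and Itgb8 at least 2-fold lower. Among the laminin chains Lama3 was at least 2-fold higher and Lamb2 at least 2-fold lower. Of the 78 probe sets 39 were above the median on both arrays, 6 on 1 array and 33 on neither. Of the 37 genes 25 were measured, 23 of them on both arrays. Of these 25, 6 (24%) were at least 2-fold higher, where 6.54% of all 11884 measured genes were, and 3 (12%) at least 2-fold lower, against 4.34%. Itgb2 was measured on the retinoic acid array only and Lama2 on the control array only. Over the 25 the median log2 ratio of retinoic acid over control was 0.21, and over all measured genes 0.017.

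**Figure D1:**
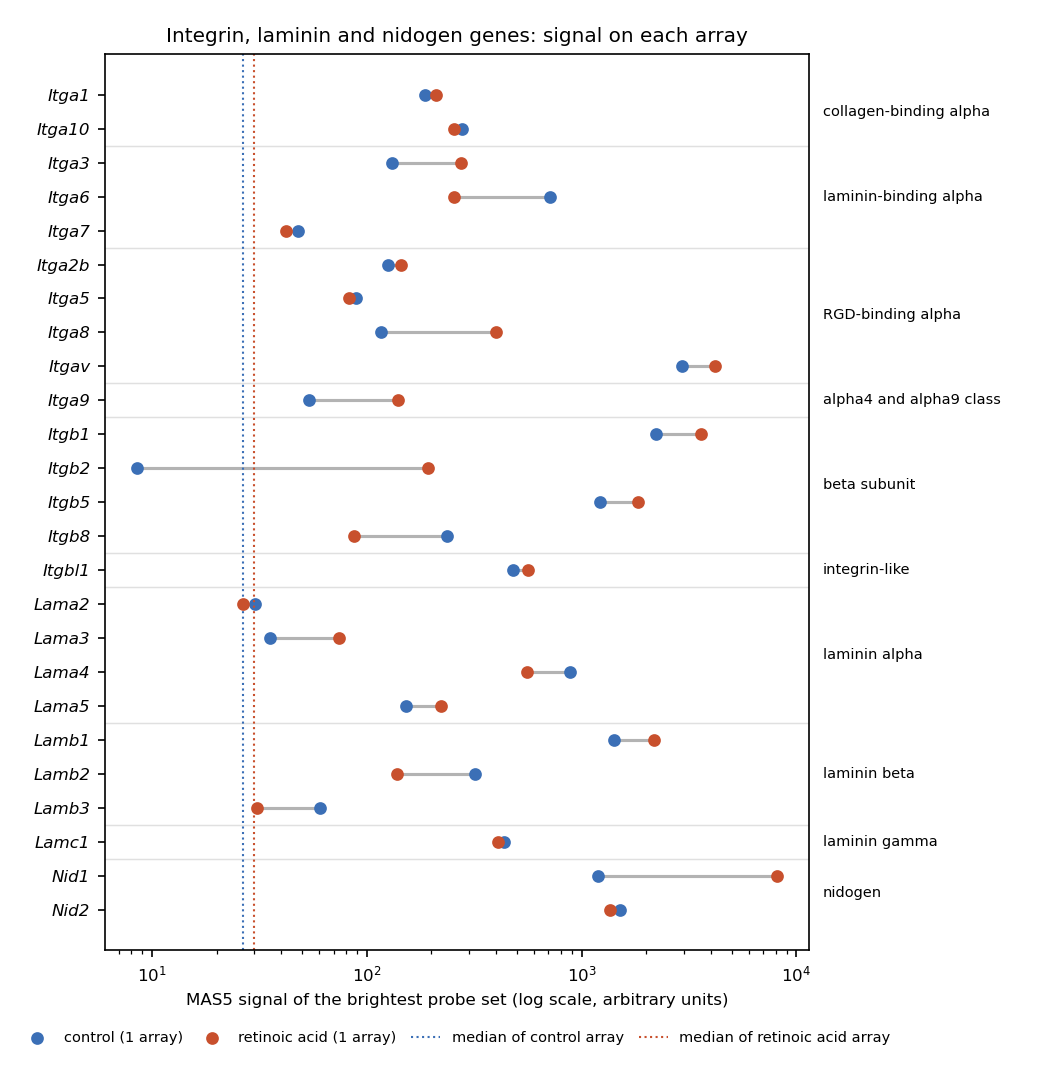
MAS5 signal (log scale, arbitrary units) of the brightest probe set of each of the 25 measured genes, on the control array (blue) and the retinoic acid array (red), with each array's median as a dotted line of the same colour. The longest lines join the points of Itgb2 (8.51 and 192) and Nid1 (1195 and 8081), both higher with retinoic acid, and Itga6 (713 and 254) lies the other way; signals of different genes are not comparable along the axis.

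Repeat measurements came only from further probe sets of the same gene. Over 4993 genes with several probe sets above the median on both arrays, the pooled SD of log2 ratios within a gene was 0.30. It was 0.24 over the 12 genes of these families that have such probe sets. The SD covers scatter within the same RNA and no variation between cultures. In all 14 genes with more than 1 measured probe set, the probe sets lay on the same side. Of the 25 genes, 16 had a log2 ratio larger in size than 0.30 and 9 did not. Of the 9 genes past 2-fold, Nid1, Itga6 and Itga9 had a further probe set above the median on both arrays, while Itgb2, Itgb8 and Lamb2 are read by 1 probe set each.

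**Figure D2:**
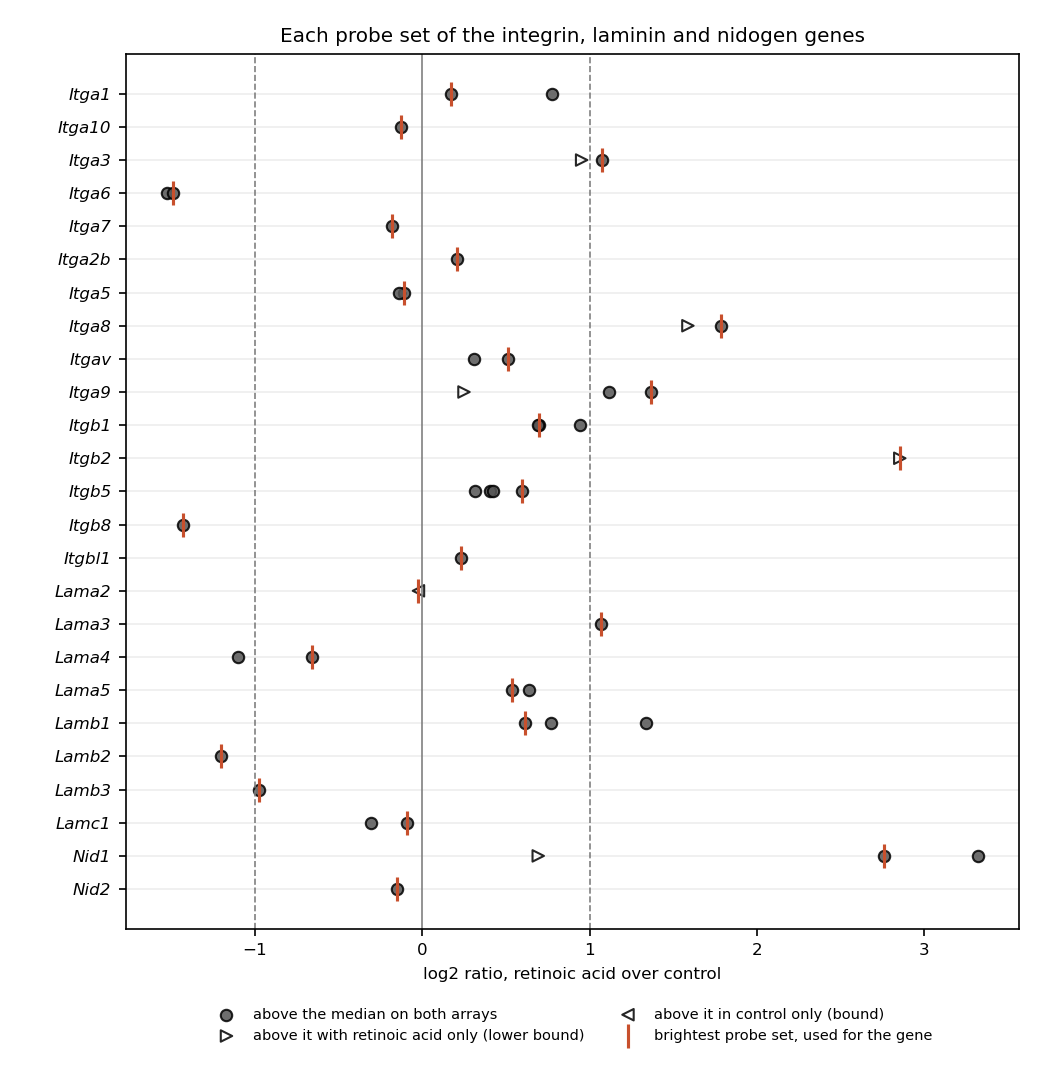
Log2 ratio of retinoic acid over control for every measured probe set of each gene (circles, above the median on both arrays; triangles, bounds), with the probe set used for the gene marked by a red tick and 2-fold marked by dashed lines. The circles of Itga6 lie almost on each other (−1.53 and −1.49), whereas those of Lamb1 run from 0.61 to 1.34.

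Receptors for laminin went both ways. Itga6, whose product pairs with β1 or β4 to bind laminins, had a signal of 713 in control and 254 with retinoic acid, 2.81-fold lower. Its other probe set read 456 and 158, 2.88-fold lower. Itga3 encodes the α3 subunit, which binds the laminins that hold α3 or α5 chains. It read 131 in control and 275 with retinoic acid, 2.11-fold higher, and its dimmer probe set gave at least 1.94-fold higher (15.9 and 51.3). The ratios of Itga6 and Itga3 thus had opposite signs; with the median signal added as an offset the log2 ratio of Itga3 was 0.96, under 2-fold. Itga7, the α7 subunit best known from muscle, was 1.13-fold lower (47.7 and 42.1).

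The integrin subunits that bind RGD proteins differed among themselves. Itga8, which encodes the α8 subunit, a receptor for nephronectin, read 116 in control and 401 with retinoic acid, 3.45-fold higher. Its second probe set gave at least 3.01-fold higher (24.8 and 79.7). The gene of this ligand, Npnt, was 5.53-fold higher (54.5 and 301), and 7.25-fold by a second probe set (29.7 and 215). Both the receptor subunit gene and this ligand gene thus had their higher signal on the retinoic acid array. A link between them was not tested. Itgav, the αV subunit of vitronectin and latent TGF-β receptors, was 1.42-fold higher (2947 and 4198), and 1.24-fold by a dimmer probe set. Itga5, the α5 subunit of the main fibronectin receptor, was 1.08-fold lower (88.8 and 82.4), and the fibronectin gene Fn1 1.07-fold lower. Itga2b, the αIIb subunit of platelets, was 1.16-fold higher (125 and 144). Of 6 platelet markers 4 were above the median in control and 3 with retinoic acid, with summed signals of 138 and 317, and Gp9 and Clec1b on neither array. Ppbp was 4.43-fold (35.5 and 157) and Pf4 2.16-fold higher (34.1 and 73.6), from control signals near the median. Gp5 was 1.19-fold higher (38.3 and 45.5), and Gp6 was above the median in control only (27.1 and 28.7). The number of platelet markers at least 2-fold higher ran from 0 to 3 under the alternatives. The part of platelets in the Itga2b signal was not tested.

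Itga9, which encodes the α9 subunit, a receptor for tenascin-C and VCAM-1, read 53.9 in control and 139 with retinoic acid, 2.58-fold higher. The second probe set was 2.16-fold higher (45.8 and 99.0), and 1 more, below the median in control, at least 1.19-fold higher. With the floor at the 70th percentile of signal (122 in control, 128 with retinoic acid) the log2 ratio of Itga9 came to 0.20, since its control signal lies under that floor. Of its ligand genes, Vcam1 was 2.30-fold higher (449 and 1033), but 1.86-fold (267 and 496) and 1.49-fold (134 and 199) by its other probe sets. Tnc was 1.47-fold lower (2017 and 1373). The related subunit gene Itga4 was not above the median on either array by any of its 5 probe sets.

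Collagen receptor genes differed little. Itga10, the α10 subunit that chondrocytes use to bind type II collagen, was 1.09-fold lower (278 and 255). Itga1, the α1 subunit, was 1.13-fold higher (186 and 209), and 1.71-fold by a dimmer probe set (43.2 and 73.8). Itga2 was not above the median on either array, and Itga11, with no probe set under its symbol here, was not analysed here. The log2 ratio of Itga10 and, by its brightest probe set, that of Itga1 were smaller than the SD between probe sets.

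Of the β subunits, those with broad expression were moderately higher. Itgb1, which encodes the β1 subunit shared by most matrix-binding integrins, read 2210 in control and 3589 with retinoic acid, 1.62-fold higher; 2 further probe sets gave 1.61-fold and 1.93-fold. Itgb5, a partner of αV, was 1.51-fold higher (1213 and 1833), and its other 3 probe sets gave 1.25-fold to 1.34-fold. Itgb8 differed the other way. It encodes a partner of αV that releases active TGF-β, and its 1 probe set read 236 in control and 87.4 with retinoic acid, 2.70-fold lower. At the 70th percentile floor the log2 ratio of Itgb8 was −0.89, under 2-fold. The αV partners β5 and β8 therefore had ratios of opposite sign. Itgb3, Itgb4, Itgb6 and Itgb7 were not above the median on either array. Itgbl1, an integrin-like gene without a membrane anchor, was 1.17-fold higher (479 and 563).

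Itgb2 encodes the β2 subunit, which pairs with the αL, αM, αX and αD chains of leukocytes. The 1 probe set read 8.51 in control, below the median, and 192 with retinoic acid, at least 7.23-fold higher. This bound follows the floor: the log2 ratio was 2.85 with the median as floor, 4.29 with the 30th percentile (9.82 and 10.6), 4.49 with no floor and 0.66 with the 70th percentile. None of the α partners read here, Itgal (14.4 and 21.6), Itgam (1.085 and 9.36) and Itgax (23.9 and 17.6), was above the median on either array. Nor was Itgae, a partner of β7. Without any floor Itgam and Itgb7 (5.57 and 28.3) were also past 2-fold higher, from signals below the median on both arrays. Of 17 leukocyte and macrophage markers 9 were above the median in control and 7 with retinoic acid, with summed signals of 764 and 809. The pan-leukocyte gene Ptprc read 5.34 and 6.59, and Tyrobp, Aif1, Cd52 and Coro1a also stayed at or below the median on both arrays. At 2-fold, 0 of the 9 measured leukocyte markers were higher and 0 lower, which is a count of folds without a test. Among these markers, those past 2-fold higher without any floor were Aif1 (1.02 and 18.0) and Cd52 (5.74 and 18.1), from signals below the median on both arrays. Spi1 (29.6 and 13.1) was past 2-fold lower, also with the floor at the 30th percentile.

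The laminin α chains went in different directions. Lama4, the α4 chain of vessels and mesenchymal cells, read 880 in control and 557 with retinoic acid, 1.58-fold lower, and 2.15-fold lower by a dimmer probe set (148 and 68.7). Of 12 endothelial markers 3 were above the median in control and 4 with retinoic acid, with summed signals of 326 and 381, or 176 and 272 without Erg, which superficial zone cells also express. Cldn5 was at least 4.08-fold higher (22.7 and 108) and Kdr at least 1.38-fold higher. Egfl7 was 1.14-fold higher (40.1 and 45.7) and Erg 1.37-fold lower (150 and 110), while Esam was above the median in control only (28.7 and 18.4). Pecam1, Cdh5 and Vwf were above the median on neither array. The part of endothelial cells in the Lama4 signal was not tested. Lama5, the α5 chain widespread in adult basement membranes, was 1.45-fold higher (153 and 221), and 1.56-fold by its second measured probe set. Lama3, the α3 chain of epithelial laminin, was 2.10-fold higher from near the median (35.2 and 73.9). Its log2 ratio of 1.07 was under 1 after quantile normalization, after loess and with the median added as an offset, at the lowest 0.75. Of 9 epithelial markers 3 were above the median on each array, with summed signals of 447 and 255, and Krt5, Krt14, Krt15, Cdh1 and Cldn4 on neither. Trp63 was 3.05-fold lower (264 and 86.7), Epcam 2.09-fold lower (87.0 and 41.6) and Krt8 at least 1.09-fold lower. Krt18 went the other way, at least 1.89-fold higher (12.9 and 50.1). The part of epithelial cells in the Lama3 signal was not tested. Lama2, the α2 chain of muscle and nerve, lay at the median (30.2 and 26.5), and Lama1 below it.

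Among the β and γ chains, Lamb1 and Lamb2 lay on opposite sides. Lamb1, the β1 chain, read 1418 in control and 2169 with retinoic acid, 1.53-fold higher, and its other measured probe sets gave 1.71-fold (323 and 551) and 2.53-fold (550 and 1392). The larger of these stood for the gene when only probe sets named as unique to a transcript were used. Lamb2, the β2 chain that can take the place of β1 in a trimer, read 318 and 138, 2.30-fold lower by its 1 probe set. Lamb3, a partner of α3, was 1.97-fold lower (60.5 and 30.7), close to the 2-fold line and past it after quantile normalization, loess or setting the median ratio to 0. With the median signal added as an offset its log2 ratio was −0.52. Lamc1, the γ1 chain of most laminins and the chain that nidogen binds, differed by 1.06-fold (434 and 408), and was 1.24-fold lower by a dimmer probe set. Lamc3 was not above the median on either array.

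In known trimers the ratios of the chains differed. For the α4β1γ1 trimer the log2 ratios were −0.66 (Lama4), 0.61 (Lamb1) and −0.089 (Lamc1). The α5β1γ1 trimer has Lama5 at 0.54 in place of Lama4. In the α4β2γ1 and α5β2γ1 trimers Lamb2, at −1.20, takes the place of Lamb1. All 3 chains of α4β2γ1 lay below 0, while the other 3 trimers had chains on both sides. In α5β1γ1 only Lamc1 lay below 0. The Lamc1 ratio was smaller in size than the SD of 0.30 between probe sets, so its side carries little weight. Over the 8 measured laminin genes the median log2 ratio was −0.056, with 3 above 0 and 5 below. Those below include Lama2, a bound at −0.023, and Lamc1. On each side 1 (12.5%) was past 2-fold, beside 6.54% higher and 4.34% lower of all measured genes, so each share rests on 1 gene. The count of higher laminin genes was 0 with the floor at the 70th percentile, with the offset, after quantile normalization and after loess.

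Of the 23 family genes above the median on both arrays, Nid1 had the largest fold. The brightest probe set read 1195 in control and 8081 with retinoic acid, 6.76-fold higher, and the second 241 and 2405, 10.0-fold higher. One more dim probe set, below the median in control, read 4.07 and 42.9, at least 1.62-fold higher. Nid2, whose product has overlapping binding partners, read 1504 and 1354, 1.11-fold lower by its 1 probe set. Under the 11 alternatives the log2 ratio of Nid1 stayed between 2.71 and 2.76.

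RefSeq promoter windows (build GRCm38.p6) matched 24 of the 37 genes, in 27 windows. The 250 bases before the start are shown for Nid1 and Itga8 (higher) and Itgb8 and Lamb2 (lower), chosen after their values were seen as genes past 2-fold in each direction, each 5′ to 3′ on the strand of its gene. They lie at chr13:13437352-13437601 (+), chr2:12301945-12302194 (−), chr12:119238277-119238526 (−) and chr9:108479612-108479861 (+). Capitals mark a GC box (GGGCGG) or a half-site of retinoid receptors on either strand, with AGGTCA as its common form, AGTTCA counted as another, GGGTCA counted as another and GGTTCA counted as the last; no marked motifs overlap in these windows.
Nid1: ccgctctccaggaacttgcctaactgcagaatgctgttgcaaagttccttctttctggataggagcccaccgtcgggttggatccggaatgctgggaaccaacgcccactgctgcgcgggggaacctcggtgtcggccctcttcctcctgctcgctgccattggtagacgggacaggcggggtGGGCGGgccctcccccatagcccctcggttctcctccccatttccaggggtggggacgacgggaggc
Itga8: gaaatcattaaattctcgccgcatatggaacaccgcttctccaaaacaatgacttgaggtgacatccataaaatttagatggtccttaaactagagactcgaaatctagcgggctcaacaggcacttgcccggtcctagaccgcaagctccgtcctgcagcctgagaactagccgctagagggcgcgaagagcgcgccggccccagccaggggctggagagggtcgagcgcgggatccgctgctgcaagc
Itgb8: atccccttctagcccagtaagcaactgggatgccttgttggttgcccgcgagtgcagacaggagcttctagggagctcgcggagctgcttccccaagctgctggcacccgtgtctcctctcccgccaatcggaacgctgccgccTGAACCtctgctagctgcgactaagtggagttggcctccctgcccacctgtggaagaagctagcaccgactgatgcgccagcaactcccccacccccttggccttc
Lamb2: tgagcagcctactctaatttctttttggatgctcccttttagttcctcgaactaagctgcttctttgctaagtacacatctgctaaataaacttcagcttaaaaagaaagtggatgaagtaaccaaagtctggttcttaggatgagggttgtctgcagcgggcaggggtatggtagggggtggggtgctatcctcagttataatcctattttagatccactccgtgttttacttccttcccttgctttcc
The Nid1 window holds 1 GC box, starting 67 bases before the start, and no half-site. The Itgb8 window holds 1 half-site on the reverse strand, TGAACC, starting 106 bases before the start, while the letters of neither motif are in the Itga8 and Lamb2 windows. Over the 27 windows 8 (29.6%) hold a half-site and 11 (40.7%) a GC box, against 38.6% and 32.7% of all 32851 promoter windows of the same length. None of the 27 holds 2 half-sites in the same direction with 5 bases between them, an arrangement found in 0.0883% of all windows. The bases G and C make up 64.4% of the Nid1 window, 56.4% for Itga8, 62.4% for Itgb8 and 43.6% for Lamb2, where the median over all windows is 52.4%. A match describes the letters in these windows and no binding.

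Other genes of the basement membrane also went both ways. Of 26 on the array 22 were measured. Past 2-fold, 4 (18.2%) were higher and 1 (4.55%) was lower, beside 6.54% and 4.34% of all measured genes, and the list's median log2 ratio was 0.065. The count of higher genes was 2 with the floor at the 70th percentile and 3 under each of the 3 scalings, and that of lower genes 3 without a floor. Npnt was followed by Ntn4, the gene of the laminin-binding netrin 4 (2.83-fold higher, 79.6 and 225), and Fbln1, the gene of fibulin 1 (2.51-fold higher, but 1.55-fold by a second probe set). Hmcn1, named after its value was seen, was 2.01-fold higher. Smoc2, the gene of a secreted calcium-binding protein related to SPARC, was 7.19-fold lower (1777 and 247), and 7.66-fold by a second probe set. Col15a1 and Bcam had bounds of at least 1.21-fold and 1.13-fold lower. Of the nidogen partners, also named after their values were seen, Col4a1 was 1.72-fold higher (293 and 505), Col4a2 1.38-fold higher (352 and 485) and the perlecan gene Hspg2 1.40-fold lower (848 and 605).

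Ligands of integrins, a list that shares Npnt with the one above, had 20 measured genes. Past 2-fold, 5 (25%) were higher and 2 (10%) lower, beside 6.54% and 4.34% of all measured genes, and the median log2 ratio was −0.18. After quantile normalization 3 were at least 2-fold higher. Thbs2, the thrombospondin 2 gene, was 2.18-fold higher (3636 and 7920) and Tgfbi, which encodes a matrix protein with an RGD motif, 2.45-fold lower (1780 and 726). Mfge8 (2.12-fold higher), Tgfb3 (2.07-fold higher) and Svep1, the gene of a ligand of α9β1 (2.03-fold lower), were named after their values were seen.

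Of 27 measured genes of integrin adaptors and signalling inside the cell, 1 (3.7%) was higher past 2-fold and 0 lower, a count of folds without a test, beside 6.54% and 4.34% of all measured genes. The shares are near those of all genes and so are no result about the adaptors. The median log2 ratio was 0.033. That gene was Tns1, which encodes tensin 1, a protein that binds β tails and actin; it was 3.08-fold higher (208 and 641), and 2.65-fold and 3.29-fold by 2 other probe sets. The parvin gene Parva was 1.87-fold, Git1 1.81-fold and the talin gene Tln1 1.69-fold higher, and Parvb at least 1.29-fold higher. Fermt3, the kindlin gene of blood cells, was not above the median on either array.

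Of 16 measured membrane partners of integrins, 1 (6.25%) was higher past 2-fold and 2 (12.5%) lower, beside 6.54% and 4.34% of all measured genes; the share of higher genes is near that of all genes. The median log2 ratio was 0.10. The caveolin gene Cav1 was 4.62-fold lower (2682 and 580), and Slc3a2, the heavy chain of amino acid transporters that also binds β tails, 2.59-fold lower (2787 and 1076). The syndecan gene Sdc1 was 2.56-fold higher (455 and 1164), and 1.66-fold to 1.97-fold by its other probe sets, so that 0 partner genes were higher past 2-fold with the median over probe sets. Cd151, the tetraspanin partner of laminin-binding integrins, was 1.64-fold higher (1155 and 1890), and 1.41-fold to 1.73-fold by 3 other probe sets. Cav1 and Slc3a2 have only probe sets named as shared between transcripts, and the list had 0 genes at least 2-fold in either direction when those were left out.

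**Figure D3:**
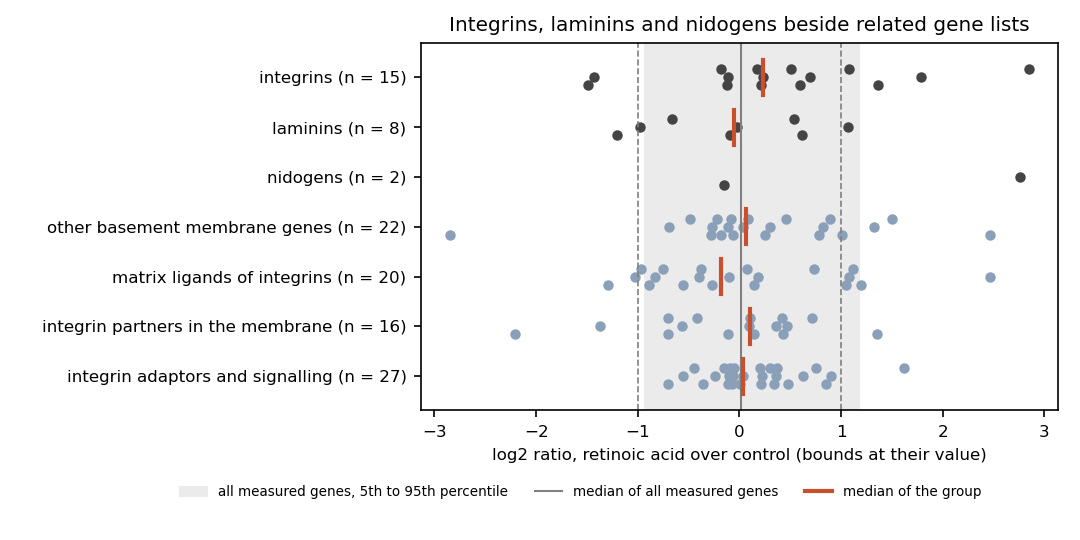
Log2 ratio of retinoic acid over control for each measured integrin, laminin and nidogen gene (dark points) and for 4 related gene lists (pale points), with red bars at the medians of groups of more than 2 genes, dashed lines at 2-fold and a grey band from the 5th to the 95th percentile of all measured genes (−0.93 to 1.18). Nid1 (2.76) and Itgb2 (2.85, a bound) lie farthest to the right, and 26 of the 27 adaptor genes lie within 2-fold.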

How the data were processed

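Total RNA (100 ng per culture) was labelled with biotin, per the labels' protocols. The deposited values are intensities, the linear signal of each probe set from MAS5, the Affymetrix algorithm listed in the submitters' processing notes. For its version, scaling target and detection calls the sources used here give nothing. Values were used with no further scaling. Of 45101 probe sets 64 were controls, and of the others 34945 had 1 gene symbol in the platform's annotation, 932 several and 9160 none; the last 2 kinds were left out. All 37 genes kept their symbol in the RefSeq gene table. Positions are given only for RefSeq promoter windows. Ratios run from control to retinoic acid. The number of arrays limits the precision, and no significance test was run.

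Every measured gene of the families is named. From each related list up to 4 genes with the largest log2 ratio above both medians and up to 2 bounds are named, besides Cyp26b1 and Rarb. The families, lists and alternatives were chosen with earlier results of these data known. The counting step was tested on simulated data, with changes past 2-fold set only in genes bright on both arrays. That test does not cover changes in dim genes or folds close to 2. The alternatives were floors at the 30th and 70th percentile, no floor, an offset, a common floor, genes above both floors only, 3 scalings (loess with span 0.3, median and quantile), unique probe sets, and a gene's probe sets summarised by their median. Software was matplotlib 3.10.9, statsmodels 0.14.6, scipy 1.17.1, pandas 2.3.3, numpy 2.4.6 and Python 3.11.15.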

Additional observations from a re-analysis of the deposited data

How the results depend on the processing

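Across the 11 alternatives, all 25 measured genes kept the sign of their ratio wherever they had a value, and 4 of the 9 genes past 2-fold (Nid1, Itga8, Itga6 and Lamb2) stayed past it in each. The number of family genes at least 2-fold higher was 6, and 3 with the floor at the 70th percentile of signal, where Itga9, Itgb2 and Lama3 dropped out; under the other 10 alternatives it lay between 4 and 8. The number at least 2-fold lower ran from 2 to 4 (3 as reported), and the median log2 ratio from 0.15 to 0.23. Itga3, at a log2 ratio of 1.07, fell to 0.96 with the median added as an offset. Over all genes, 777 were at least 2-fold higher and 516 lower as reported, 449 and 260 with the floor at the 70th percentile, and 2137 and 2106 with no floor. The number of measured genes changes with the floor. With no floor all genes count, so that 8 of 37 family genes were higher and 4 lower, beside 2137 and 2106 of 18193. The share of lower family genes was then no larger than that of all genes. Genes near the median signal, such as Lama2 and Lama3, are limited by their low signal. No paired analysis was possible because each group has 1 culture.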
